A study of Mus musculus with 2 samples.

Results

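Setd1a, Setd1b, Cxxc1, Wdr5, Ash2l, Rbbp5 and Dpy30 encode the catalytic, CpG-binding and core subunits of the Setd1/COMPASS complexes, which methylate lysine 4 of histone H3 (H3K4). They were chosen by name, because Setd1a is the partner of Uhrf1 that the study examines. These genes are 7 of the 22372 protein-coding genes of the GENCODE vM1 annotation. Open chromatin was mapped by ATAC-seq, an assay in which a transposase cuts accessible DNA. The cells were undifferentiated mouse embryonic stem cells (ESCs), either wild type (WT) or lacking Uhrf1 (Uhrf1 KO). The culture methods of the paper name E14 cells and Uhrf1 KO cells. Each genotype gave 1 library from 50000 lysed cells, the Uhrf1 KO cells were 1 line, and cultures of both genotypes were kept on plates coated with gelatin or with mouse embryonic fibroblasts (MEFs). The deposited data are lists of open regions (peaks), each 101 bp wide except for 1 KO peak, with no measure of peak strength. There were 71914 WT and 61640 KO peaks, a KO/WT ratio of 0.857, and with 1 library per genotype no difference between the lists can be tested.

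SET-domain enzymes such as Setd1a and Setd1b methylate H3K4 poorly on their own and gain activity when bound by Wdr5, Rbbp5, Ash2l and Dpy30. Cxxc1 (also called Cfp1) recognises unmethylated CpG dinucleotides through its CXXC zinc finger and brings Setd1 enzymes to CpG islands. H3K4 trimethylation marks the promoters of active genes and, together with H3K27 trimethylation, the bivalent promoters of developmental genes in ESCs.

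The question put to the data was where the open regions of these genes lie and which of them both genotypes share. Each gene was taken with 20 kb on either side, and a peak was counted by its middle. A promoter peak lay within 2 kb of an annotated transcription start site (TSS) of the gene. A peak was called shared when a peak of the other list overlapped it or lay within 100 bp, and WT-only or KO-only otherwise.

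Of the 7 genes, 6 had a promoter peak in both lists, against 56.2% of all protein-coding genes. Rbbp5 had promoter peaks in the WT list only, the class of 6.75% of all protein-coding genes, and with the WT list cut to the length of the KO list it had none in either. Among the 14086 genes with at least 1 WT promoter peak, 89.3% also had a KO promoter peak, so 6 of 7 lies near the background of genes with open promoters. In total the members had 21 WT promoter peaks (95% exact Poisson interval 13.0 to 32.1) and 11 KO promoter peaks (5.49 to 19.7). KO promoter peaks were thus fewer, with intervals that overlap.

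Within 20 kb the WT list had 63 peaks at the members (interval 48.4 to 80.6) and the KO list 33 (22.7 to 46.3), a KO/WT ratio of 0.524 (95% exact interval 0.333 to 0.810). The same windows of all protein-coding genes gave 0.805, with a peak counted once for each window it lay in, which is just inside that interval. Counted once each, the peaks of these windows numbered 57887 in WT and 47102 in KO, a ratio just above the interval. All peaks gave 0.857, which also lies above it. Many of these window peaks lay nearest to the TSS of another gene. Those nearest to a TSS of the member numbered 30 in WT and 16 in KO, a ratio of 0.533. Its interval, 0.272 to 1.01, includes both 0.805 and 0.857, so the separation from all peaks rests on the wider window. KO peaks were fewer than WT peaks at 6 of the 7 genes, against 48.7% of all protein-coding genes, and the exception, Wdr5, had equal numbers. With the WT list cut to the length of the KO list by name number, 5 genes had fewer KO peaks, against 38.3% of all genes, and Wdr5 and Ash2l had equal numbers. Among the 11512 genes with 4 to 16 WT peaks, the range of the members, 69.5% had fewer KO peaks. KO promoter peaks were fewer at 5 of the 7 genes and equal at Setd1b and Cxxc1. The background of fewer KO promoter peaks is 32.6% of all genes and 51.8% of the genes with a WT promoter peak. With lists of equal length KO promoter peaks were fewer at Setd1a, Wdr5 and Dpy30 only, against 27.7% of all genes. These and all later intervals describe the error of counting alone and treat neighbouring peaks as independent, which they are not. With neighbouring peaks merged into regions the ratio was 0.610 (0.355 to 1.03), which includes the ratio of all peaks, and Dpy30 then had more KO than WT regions. With 1 member left out at a time, the ratio of peaks was lowest without Dpy30 (0.449) and highest without Setd1a (0.617, from 47 WT and 29 KO peaks).

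**Figure D1:**
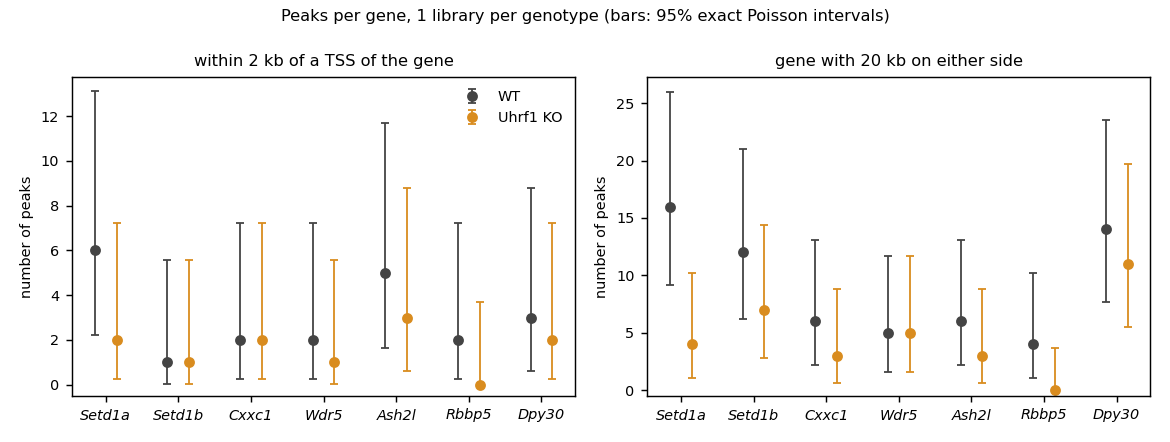
Number of peaks per gene (vertical axis) in the WT (dark grey) and Uhrf1 KO (orange) libraries, within 2 kb of a TSS (left) and in the gene with 20 kb on either side (right). Points are numbers from 1 library each and bars are 95% exact Poisson intervals; Setd1a with 16 WT and 4 KO peaks has the widest gap on the right, and Wdr5 has 5 of each.

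Relative to the length searched, the median density of the members was above that of all protein-coding genes. The median was 1.32 WT and 0.661 KO peaks per 10 kb, against 0.488 and 0.396 over all protein-coding genes. That background includes the 35.3% of genes with no promoter peak in either list. In WT the density was highest at Setd1a (2.52 peaks per 10 kb) and Dpy30 (2.17) and lowest at Rbbp5 (0.586). The place of Dpy30 in WT rests on counting single peaks, since merging left 5 WT regions there and 10 each at Setd1a and Setd1b. In Uhrf1 KO the density was highest at Dpy30 (1.71) and Setd1b (1.07), while Ash2l (0.420) lay near the value of all genes and Rbbp5 had none. The counting intervals of the WT numbers overlapped for every pair of members. Among the KO numbers, the interval of Rbbp5 was separate from that of Dpy30 alone.

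Setd1a encodes a SET-domain H3K4 methyltransferase. It lies on the plus strand of chromosome 7 from 134920184 to 134943636 (mm9) and has 4 annotated TSSs, at 134920184, 134920663, 134920903 and 134921209. In WT the window of the gene had 16 peaks (interval 9.15 to 26.0), and in KO it had 4 (1.09 to 10.2). The KO/WT ratio was 0.250 (0.0608 to 0.775), below the 0.853 of all chromosome 7 peaks, and every KO peak of the window was shared. At the promoter there were 6 WT and 2 KO peaks. Among the 552 genes with 6 WT promoter peaks, 22.5% had 2 KO peaks or fewer, with a median of 4. Merged into regions, the window held 10 WT and 4 KO regions, and a flank of 50 kb took in 26 WT and 17 KO peaks. The intervals of the ratio were then 0.0916 to 1.39 and 0.333 to 1.25, and with 10 kb 0.0731 to 0.996, each of which includes the ratio of chromosome 7, so the separation from it depends on the window and on counting single peaks.

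The shared promoter peaks of Setd1a lay on either side of its first TSS. The peak before the first TSS, at 134920021 to 134920121 in WT and 134920066 to 134920166 in KO, was intergenic, with its middle 113 bp (WT) and 68 bp (KO) before the TSS at 134920184. The other started at 134920461 in WT and 134920430 in KO, in an untranslated exon and before the TSS at 134920663. The 4 WT-only promoter peaks started at 134920780, 134920847, 134920929 and 134921201 and surrounded the TSSs at 134920903 and 134921209. The KO list was thus empty at these downstream TSSs, in the region where the WT list was most crowded. The KO promoter peaks themselves stood late, at 98.8% and 80.2% of the KO order of name numbers on chromosome 7. With only the 50% of peaks with the lower name numbers in each list, the promoter had 1 WT and 0 KO peaks. An empty stretch of the KO list therefore does not show closed chromatin. GC content of the central 200 bp was 59.5% and 67.5% for the shared WT peaks and ranged from 74.0% to 84.5% for the WT-only peaks. Over the promoter peaks of all genes, a share of 27.7% had no partner in WT below 50% GC, 27.6% at 50% to 60%, 23.3% at 60% to 70%, 25.0% at 70% to 80% and 31.4% above. In KO the shares were 36.6%, 15.9%, 5.22%, 2.99% and 3.75% in the same order.

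The remaining peaks around Setd1a belonged mostly to its neighbours. Orai3, a calcium channel subunit gene upstream, had 4 WT peaks and 1 KO peak within 2 kb of its TSS, and Hsd3b7, a bile acid synthesis gene downstream, had 2 WT peaks and 1 KO peak. A WT-only peak at 134917709 lay in an untranslated exon of Orai3, 2425 bp before the first Setd1a TSS. No KO-only peak lay in the window. No other protein-coding gene had the same WT and KO numbers as Setd1a both at its promoter and in its window (0 genes), and 83 others had the same promoter numbers. How many other genes lack such a match was not counted, so the 0 does not set Setd1a apart.

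Setd1b encodes the paralogous methyltransferase and lies on the plus strand of chromosome 5 from 123592202 to 123617444, with annotated TSSs at 123592202, 123592966 and 123613390. The WT list had 12 peaks in its window (interval 6.20 to 21.0) and the KO list 7 (2.81 to 14.4), each of which was shared. The lists agreed at its promoter, with 1 peak each, at 123591090 to 123591190 (WT) and 123591108 to 123591208 (KO). This peak was centred 1062 bp (WT) and 1044 bp (KO) before the first TSS, in an exon of AI480526, a noncoding transcript that runs away from Setd1b on the other strand. No peak of either list lay closer to any of the 3 TSSs.

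Much of the Setd1b window was open upstream of the promoter peak. Of the 6 WT peaks whose nearest protein-coding TSS was that of Setd1b, 3 lay there. Shared peaks were centred 3892 and 3664 bp before the first TSS in WT and 3869 and 3690 bp before it in KO, in an intron of AI480526. Further shared WT peaks were centred 5529, 6553 and 6615 bp upstream, nearer to the TSS of a neighbouring gene. Downstream, 2 WT peaks and 1 KO peak, all shared, lay nearest to the TSS of Hpd, a tyrosine catabolism gene. Of the 3 WT-only peaks, 1 lay 4396 bp upstream, 1 in a Setd1b exon at 123599805 and 1 in the adjoining intron at 123600163. The gene body of Setd1b therefore had 2 WT peaks and 0 KO peaks, numbers too small to differ beyond counting error.

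Cxxc1, the CpG-binding subunit, lies on the plus strand of chromosome 18 from 74375785 to 74381145, the shortest of the genes at 5361 bp. Around it lay 6 peaks in WT (interval 2.20 to 13.1) and 3 in KO (0.619 to 8.77). At the promoter both lists had 2 peaks, which started at 74375691 and 74375775 in WT and at 74375688 and 74375768 in KO, offsets of 3 and 7 bp. These peaks straddled its TSS and were the closest-matched promoter of the 7. The WT-only peaks started at 74357003 and 74366743, both in introns of the neighbouring kinetochore gene Ska1, and at 74378688 in an intron of Cxxc1 2953 bp after the TSS. Ska1 itself had 2 WT peaks and 1 KO peak at its promoter.

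Wdr5, the WD-repeat subunit that binds the catalytic subunits, lies on the plus strand of chromosome 2 from 27370677 to 27392055. The gene has annotated TSSs at 27370677 and 27375281. It had 5 WT and 5 KO peaks (interval 1.62 to 11.7 for each), the only member with equal numbers in its window. A shared promoter peak started at 27370594 in WT and 27370587 in KO and reached across the first TSS. A second WT promoter peak at 27370273, centred 354 bp before the first TSS, was WT-only. No peak of either list lay within 2 kb of the TSS at 27375281. Shared intergenic peaks lay downstream of the gene, starting at 27395699 (WT) and 27395725 (KO) and at 27405779 (WT) and 27405783 (KO). In an intron of Brd3, a BET bromodomain gene upstream, the window held 1 WT and 2 KO peaks, and the whole Brd3 promoter had 5 WT and 4 KO peaks.

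Ash2l encodes the subunit that, with Rbbp5, forms the stimulating module of the core. It lies on the minus strand of chromosome 8 from 26926663 to 26958166 and has 5 annotated TSSs, 4 of them between 26950549 and 26951251 and 1 at 26958166. At its promoters there were 5 peaks in WT (interval 1.62 to 11.7) and 3 in KO (0.619 to 8.77). Both groups of TSSs were open in both lists. At the upstream TSS the WT peaks started at 26958056 and 26958151 and the KO peaks at 26958117 and 26958260, all shared. At the internal group 1 WT peak at 26951186 was shared with a KO peak at 26951261, and those at 26950771 and 26950953, in an Ash2l intron, were WT-only. A WT-only peak at 26924263, in an untranslated exon of Star, brought the window to 6 WT and 3 KO peaks. With lists of equal length the window had 3 WT and 3 KO peaks and the promoters 2 WT and 3 KO, so the order of WT and KO did not hold. Kcnu1, a potassium channel gene, starts at 26960095 on the plus strand, so the peaks at the upstream Ash2l TSS also lie within 2 kb of its TSS. Chromosome 8 stands apart, with a KO/WT ratio of 0.641 for all its peaks against 0.805 to 0.924 on the other autosomes, and the part of this in the Ash2l numbers was not tested. Without Ash2l the ratio of the members was 0.526.

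Rbbp5, the partner of Ash2l in that module, lies on the plus strand of chromosome 1 from 134373944 to 134402242. The WT list had 4 peaks in its window (interval 1.09 to 10.2) and the KO list 0 (0 to 3.69), and the intervals overlap. Of the WT peaks, 2 were promoter peaks, starting at 134373570 and 134373620 and overlapping each other, centred 324 and 274 bp before the TSS. The first of them lay in an exon of 6030442K20Rik, a long noncoding RNA gene on the opposite strand. The other WT peaks started at 134417497 and 134417590 and overlapped each other in an intron of Cntn2, a contactin gene, 43603 and 43696 bp after the TSS. Merging left 2 WT regions, 1 at the promoter and 1 in Cntn2.

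The Rbbp5 promoter peaks stood late in the WT list. Peak names end in a number that counts within a chromosome, the sources used here do not state its meaning, and peaks with higher numbers had a partner less often. The Rbbp5 promoter peaks stood at 96.3% and 87.0% of the chromosome 1 order. In the tenth of each chromosome with the highest numbers, 66.4% of the WT promoter peaks of all genes had no partner, and in the tenth below it 59.2% had none. Of the 3763 genes with 2 WT promoter peaks, 366 (9.73%) had none in the KO list, the class of Rbbp5. With lists of equal length the gene had 1 WT and 0 KO peaks in its window and no promoter peak, so its WT-only promoter depends on the full WT list. Absence from the KO list therefore does not show that the promoter was closed in these cells.

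Dpy30, the smallest core subunit, binds Ash2l. The gene lies on the minus strand of chromosome 17 from 74698814 to 74723284 and has annotated TSSs at 74715734 and 74723284. Within 20 kb lay 14 peaks in WT (interval 7.65 to 23.5) and 11 in KO (5.49 to 19.7). All promoter peaks were at the internal TSS, where WT peaks started at 74715570, 74715674 and 74715751 and KO peaks at 74715642 and 74715785, all shared. No peak of either list lay within 2 kb of the TSS at 74723284. Much of the window belonged to its neighbours, with 9 WT and 4 KO peaks at the promoter of Memo1 and 2 WT and 3 KO peaks at that of Spast, the spastin gene. After merging, the window held 5 WT and 7 KO regions, so its order of WT and KO turned.

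The KO-only peaks of all 7 windows, 2 in number, both lay at Dpy30. The more downstream of them started at 74699573 in an intron of Dpy30 and the other at 74730584 in intergenic sequence 7350 bp before the TSS at 74723284. Their GC content was 48.5% and 51.0%, near the median of 49.5% for all KO-only peaks and below the median of 63.0% for the shared KO peaks of the members.

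**Figure D2:**
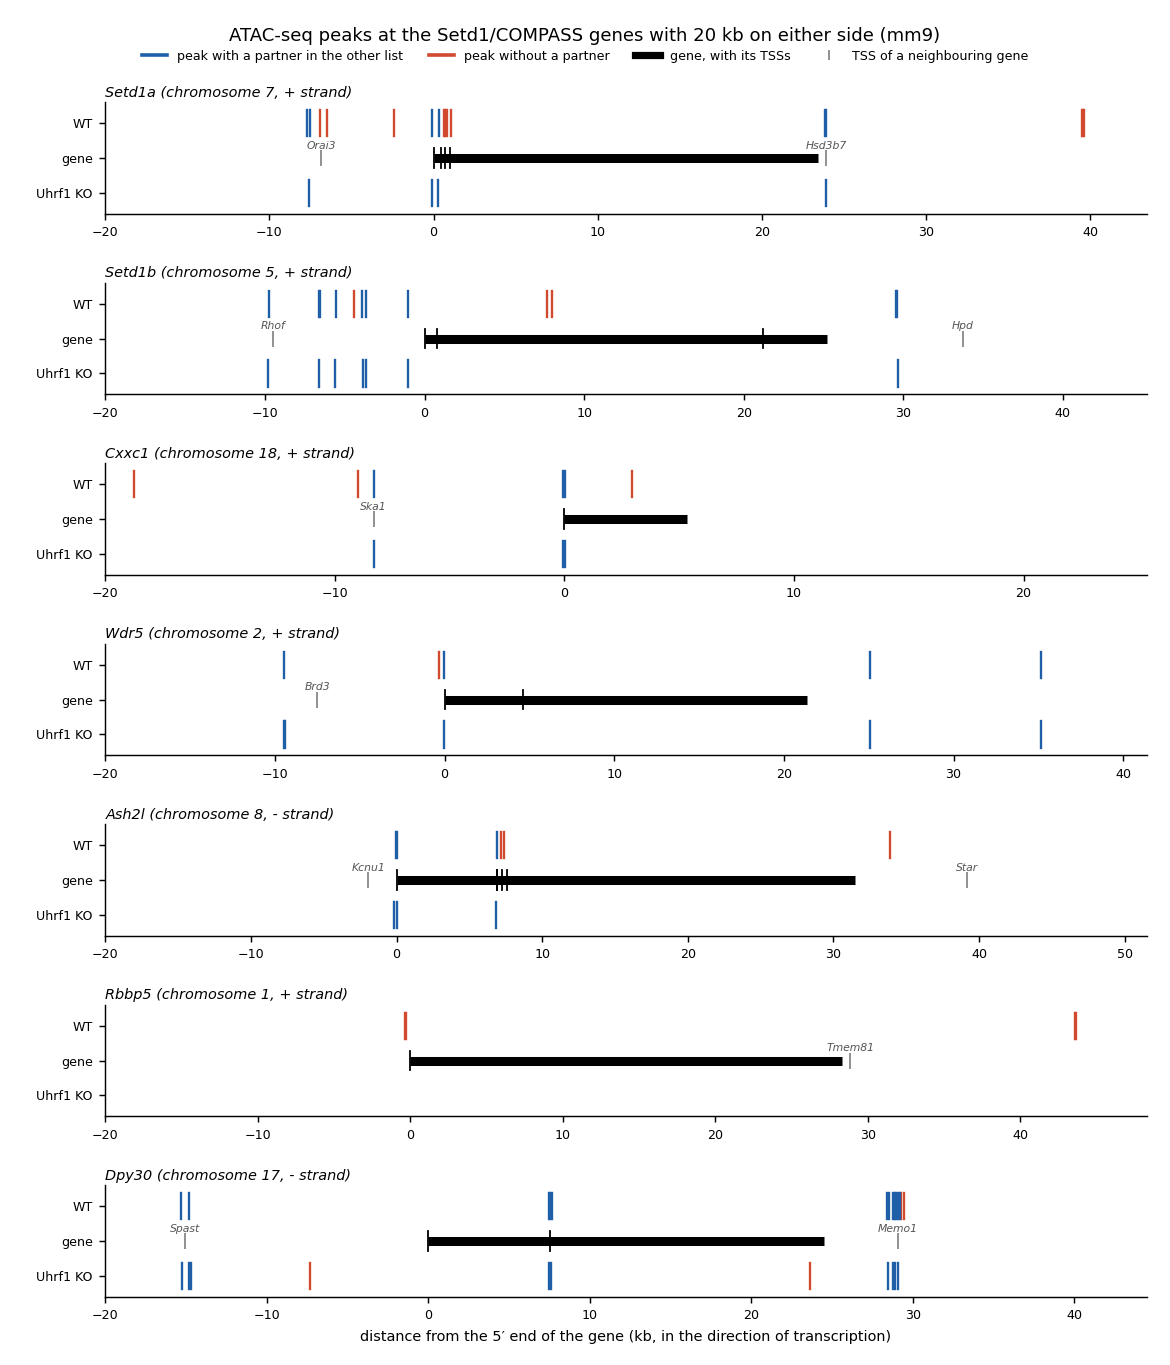
Peaks of the WT (upper row) and Uhrf1 KO (lower row) lists in each gene with 20 kb on either side, against the distance in kb from the 5′ end of the gene, read in the direction of transcription (mm9). Blue strokes are shared peaks, red strokes have no partner in the other list, black bars are genes with their TSSs and grey marks are TSSs of neighbouring protein-coding genes; the 4 WT-only promoter peaks of Setd1a and the empty KO row of Rbbp5 are visible.

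Of the 63 WT peaks of the members, 26 (41.3%, 95% exact binomial interval 29.0% to 54.4%) were WT-only, against 31.1% of WT peaks in the windows of all protein-coding genes. Of the 33 KO peaks, 2 (6.06%, interval 0.743% to 20.2%) were KO-only, against 20.1%. Both backgrounds lie within the intervals, the KO value by a narrow margin. Over all peaks the shares were 32.1% in WT, inside the interval, and 24.6% in KO, above it. At the promoters, 9 of 21 WT peaks (42.9%, interval 21.8% to 66.0%) and 0 of 11 KO peaks (0% to 28.5%) had no partner, against 25.1% and 8.29% for the promoter peaks of all genes, again within the intervals.

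Of the 9 WT-only promoter peaks, Setd1a had 4, Ash2l and Rbbp5 2 each and Wdr5 1. They stood between 55.9% and 96.3% of the name order of their chromosomes, with a median of 82.9%, and the 12 shared ones between 5.87% and 94.8%, with a median of 35.1%, so the ranges overlap. When each list was restricted to the 50% of its peaks that carry the lower numbers, the members had 7 WT and 6 KO promoter peaks, a ratio of 0.857 (interval 0.238 to 2.98) against 0.746 for all genes. By its construction this setting removes all 9 WT-only promoter peaks. Of the 7 genes, 3 then had a promoter peak in both lists, against 43.4% of all protein-coding genes. Within 20 kb, 3 then had fewer KO than WT peaks, against 39.3% of all genes, 3 had equal numbers and Wdr5 had more in KO, 3 WT and 4 KO. The 31 bp at the centre of each of the 96 member peaks occur, as an exact match, at 1 place of the genome.

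The members' promoters are CpG-rich. From 250 bases before to 50 bases after the TSS nearest to a promoter peak, median GC content was 59.0%, against 56.3% for all protein-coding promoters and 62.3% for those with a peak in both lists. The number of CpG dinucleotides had a median of 22 in the members, 13 in all promoters and 22 in promoters with a peak in both lists. The Setd1a promoter held the most, 35 CpGs at 73.7% GC, and Dpy30 held 34 at 68.3%. Rbbp5 had the fewest, 16 CpGs at 44.0% GC, but its ratio of observed to expected CpG was the highest, at 1.13.

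Short words bound by promoter factors were counted on both strands of the same stretch. The SP/KLF word GGGCGG occurred in 1 of the 7 promoters, Wdr5 with 2 matches, against 46.7% of all promoters and 69.2% of those with a peak in both lists. The ETS word CCGGAAG occurred in Cxxc1 alone, against 11.4% of all promoters. NF-Y (CCAAT, 37.3% of all promoters), NRF1 (GCATGCGC, 3.45%), YY1 (AAGATGGC, 3.42%), CREB/ATF (TGACGTCA, 2.38%), the E-box CACGTG (7.98%) and the Oct4 octamer ATGCAAAT (1.70%) occurred in none of the members. A match or its absence describes these letters in this window and nothing more. The Setd1b promoter peak lies outside this window, and its stretch printed below holds 1 NF-Y and 1 SP/KLF match. In the central 200 bp of the promoter peak with the lowest name number, GGGCGG was in 3 of the 7.

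Stretches of the promoter peaks are shown because CpG dinucleotides, printed in capitals, are what the CXXC finger of the complex reads. They come from the NCBIM37 genome, which is the mm9 build, and run 5′ to 3′ on the strand of the gene. Each is the longest part outside protein-coding exons of a WT promoter peak, joined with promoter peaks that overlap it. The peak is the one with the lowest name number among those with at least 30 bases outside such exons. No stretch is printed for Cxxc1. For Setd1a, the stretch from the WT-only peaks (chr7:134920862-134920902, plus strand, in a Setd1a intron) is set beside the shared intergenic peak (chr7:134920021-134920121, plus strand), chosen in the same way among its shared peaks. Each holds 5 CpGs, in 41 and 101 bases. The 41 bases are only a part of 3 joined WT-only peaks. The central 200 bp of those peaks held 26, 33 and 37 CpGs, against 15 for this shared peak. The Rbbp5 stretch (chr1:134373570-134373720, plus strand) covers its WT-only promoter peaks and holds 10. Setd1b (chr5:123591090-123591190, plus strand, in an exon of noncoding AI480526) holds 6 and Wdr5 (chr2:27370594-27370676, plus strand, intergenic) 9. Ash2l (chr8:26951252-26951286, minus strand, in an Ash2l intron) holds 5 and Dpy30 (chr17:74715735-74715851, minus strand, in a Dpy30 intron) 19, the most of those shown.
Setd1a WT-only: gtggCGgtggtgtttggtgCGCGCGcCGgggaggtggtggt
Setd1a shared: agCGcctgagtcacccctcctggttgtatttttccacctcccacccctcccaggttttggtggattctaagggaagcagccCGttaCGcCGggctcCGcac
Rbbp5 WT-only: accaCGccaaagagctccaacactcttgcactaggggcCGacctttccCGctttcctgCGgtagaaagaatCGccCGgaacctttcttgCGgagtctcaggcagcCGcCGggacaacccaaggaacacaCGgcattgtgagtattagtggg
Setd1b shared: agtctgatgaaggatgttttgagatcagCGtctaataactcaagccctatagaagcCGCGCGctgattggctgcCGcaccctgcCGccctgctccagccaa
Wdr5 shared: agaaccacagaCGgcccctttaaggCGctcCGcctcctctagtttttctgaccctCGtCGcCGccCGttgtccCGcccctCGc
Ash2l shared: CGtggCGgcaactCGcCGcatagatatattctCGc
Dpy30 shared: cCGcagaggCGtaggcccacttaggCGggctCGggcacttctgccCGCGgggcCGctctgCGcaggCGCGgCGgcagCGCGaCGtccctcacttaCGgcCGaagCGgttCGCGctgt

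The other genes of H3K4 methylation were read in the same way. Of 19 such genes, 15 had a promoter peak in both lists, 3 in WT only, 0 in KO only and 1 in neither, against 56.2%, 6.75%, 1.75% and 35.3% of all protein-coding genes. The share of 56.2% is also the background of the smaller lists that follow. They had 62 WT and 40 KO promoter peaks, a ratio of 0.645, and 134 WT and 91 KO peaks within 20 kb, a ratio of 0.679. Both ratios lie between that of the members (0.524) and those of all genes (0.764 and 0.805). The members' intervals, 0.228 to 1.14 at promoters and 0.333 to 0.810 within 20 kb, include these values, so no order is shown. The remaining Setd1-associated subunits Hcfc1, Wdr82, Bod1 and Bod1l were all open in both lists, with 16 WT and 8 KO promoter peaks. Wdr82, which binds the RNA-recognition part of Setd1 proteins, had 12 WT and 7 KO peaks in its window, the most of the 4, and Bod1 the fewest, 2 WT and 1 KO.

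In the Mll1/Mll2 branch all 4 genes (Kmt2a, Kmt2b, Men1 and Psip1) had promoter peaks in both lists, 15 WT and 14 KO in total. Kmt2b had the most WT peaks within 20 kb, 18 against 10 in KO, and Men1, encoding menin, the fewest, 5 against 7. In the Mll3/Mll4 branch 4 of 6 genes were open in both lists, with 17 WT and 12 KO promoter peaks over the branch. Kmt2d had a WT-only promoter (1 and 0 peaks), and Pagr1a had no promoter peak in either list while its window held the most peaks, 12 WT and 7 KO. Kdm6a, the H3K27 demethylase gene of this branch, had the fewest WT peaks, 5, and also 5 in KO.

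Among the H3K4 demethylases, which remove the mark, 3 of 5 genes were open in both lists, against 56.2% of all protein-coding genes. All 5 had a WT promoter peak, and of all genes with such a peak 89.3% also had a KO promoter peak. With 5 genes the distance from that background cannot be judged. Kdm1a had 1 WT and 0 KO promoter peaks and Kdm5b 3 WT and 0 KO. Kdm5a had the most WT peaks within 20 kb, 9 against 4 in KO, and Kdm1a the fewest, 2 against 1. The list as a whole had 14 WT and 6 KO promoter peaks, fewer in KO, as in the members and in all genes (ratio 0.764).

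The labels of cell type and genotype were also read at promoters. The ESC genes Pou5f1, Sox2, Nanog, Esrrb and Zfp42 had promoter peaks in both lists, 5 of 5, against 56.2% of all protein-coding genes. Of the fibroblast genes, read because the plates may have carried MEFs, 4 of 7 (Col1a1, Col1a2, Thy1 and Prrx1) had promoter peaks in both lists, near that background, with 10 WT and 8 KO peaks over the list and the most, 4 WT and 2 KO, at Col1a1. Col3a1, Twist2 and Postn had no promoter peak in either list, and the part of feeder cells in the members' peaks was not tested. Uhrf1 itself had 2 WT and 3 KO promoter peaks, so its promoter does not check the genotype.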

How the data were processed

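The authors mapped ATAC-seq reads to mm9 with Bowtie2 and used fragments below mononucleosome size. The submitters' processing notes name Bowtie2 2.1.0 and HOMER 4.9.1. The peak-calling threshold and any shift of read ends are not given in the sources used here. The deposited score is 1 for every peak, so no depth or error is known for a single peak. Groups follow the genotype labels. Placement on GENCODE vM1, comparison and intervals used Python 3.11.15 with scipy 1.17.1 and numpy 2.4.6. The partner routine was tested on 20000 simulated regions and made 0 errors. Sequence was read with pysam 0.24.0 and samtools 1.23.1, and numba 0.67.0 was used to count exact copies of the central 31 bp. Plots were made in matplotlib 3.10.9. All members were named, and of the other lists the genes not open in both genotypes and those with the most and fewest WT peaks. No test between genotypes was made. Members and lists were chosen with earlier results of these data known. The RefSeq tables at hand are on another build and were not used. Alternatives changed the flank, promoter width, partner rule, list length and merging. Some peaks counted in the windows of Setd1a and Setd1b are not reported here by position.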

Additional observations from a re-analysis of the deposited data

How the results depend on the processing

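No paired analysis was possible because there is 1 library of each genotype. KO peaks within the members' windows were fewer than WT peaks in all 14 settings, which reuse largely the same peaks. The KO/WT ratios ran from 0.375 (gene body alone) to 0.710 (the 50% of peaks with the lower name numbers in each list). For the latter the interval was 0.392 to 1.27. All protein-coding genes also had fewer KO peaks where this was computed. Their ratios were 0.847 after merging, 0.912 with lists of equal length and 0.792 with the lower name numbers. Numbers of peaks or genes were held against 1.5 times the main number, ratios and shares against the counting interval, and medians against the spread between members. By these rules 91 of 134 alternative values stayed within their limit and 43 moved beyond it. With 50 kb on either side the members had 58 KO peaks, Setd1a 26 WT and 17 KO, Ash2l 11 WT and 6 KO, Wdr5 9 WT, Cxxc1 6 KO and Rbbp5 3 KO. With 10 kb Rbbp5 had 2 WT peaks. The gene bodies alone held 16 WT and 6 KO peaks: Setd1a 5 WT and 1 KO, Setd1b 2 and 0, Cxxc1 2 and 1, Wdr5 0 and 0, Dpy30 3 and 3, Ash2l 1 KO and Rbbp5 0 WT. Merging left 41 WT regions, 13 of them at promoters, with 10 WT at Setd1a, 2 WT at Rbbp5 and 5 WT and 7 KO at Dpy30. With the WT list cut to the length of the KO list the members had 55 WT and 33 KO peaks, a ratio of 0.600. Its interval, 0.377 to 0.940, includes the 0.912 of all protein-coding genes in that setting. KO peaks were then fewer at 5 genes and equal at Wdr5 and Ash2l (3 WT and 3 KO), and Rbbp5 had 1 WT and 0 KO. The members' promoters then had 16 WT and 11 KO peaks, a ratio of 0.688 (0.288 to 1.58) against 0.840 for all genes. Ash2l had 2 WT and 3 KO promoter peaks and Rbbp5 0 in both, and 6 genes still had promoter peaks in both lists. Peaks whose nearest TSS was that of the member numbered 30 in WT and 16 in KO. Longer windows and merging change what is counted by their construction. When at least 50% of both regions had to be shared, 58.7% of WT and 21.2% of KO peaks had no partner, and with the lower name numbers against the whole other list 9.68% and 0%. With the lower name numbers the members had 31 WT peaks, 7 WT and 6 KO promoter peaks, and 3 genes with a promoter peak in both lists. In the central 200 bp of the promoter peak, the SP/KLF word was in 3 members, NF-Y and YY1 in 1 each and ETS in 0; the cause was not tested. Leaving out each member other than Ash2l in turn, equal list lengths at promoters and merged promoter regions were chosen after seeing the data. As the score is constant, no stricter threshold was possible, and since no read counts accompany the peaks, a region absent from a list may still be open.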
